A study of Mus musculus with 9 samples.

Results

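The 39 genes described here encode the DNA replication machinery of the mouse, from the proteins that license an origin to the enzymes that supply deoxynucleotides. They were taken by name from 19938 genes read on Affymetrix Mouse Gene 1.0 ST arrays, and all 39 were measured. A gene with more than 1 probe set was read from the one with the highest mean over the arrays. They fall into 6 roles: 4 licensing genes, 13 genes of the replicative helicase, 8 of the polymerases and primase, 6 of the sliding clamp and its loader, 3 of lagging-strand maturation and inheritance, and 5 of nucleotide supply.

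The RNA came from immortalized mouse embryonic fibroblasts (MEFs), a connective tissue cell culture, of ICR strain background. All 9 samples had been infected for 2 h with an adenovirus that makes a short hairpin RNA (shRNA) and kept for 70 h in medium with 10% fetal bovine serum at 37 degrees C, so the controls carried virus too. In 3 samples the hairpin was scrambled and served as control, in 3 it targeted HSF1, the heat shock transcription factor, and in 3 it targeted RPA1, the biggest protein of the RPA complex that covers single-stranded DNA. The series asked whether HSF1 and RPA together set gene expression. Per target the labels name one shRNA, and separate cultures within a group are not mentioned. The p-values therefore measure only the spread between these samples, which may be technical.

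In G1 phase, ORC, CDC6 and CDT1 load the MCM ring onto DNA, and CDC45 and the GINS complex later turn that ring into a working helicase. RPA coats the single strands that the helicase exposes, polymerase alpha with primase starts each strand, polymerases delta and epsilon extend it, RFC loads the PCNA clamp, and FEN1 with DNA ligase I joins the lagging-strand pieces. Many of these genes are known targets of the E2F transcription factors and are transcribed most strongly near the start of S phase.

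Values are log2 signals per probe set. Differences are log2 differences between group means ± the standard error of the limma model, with n = 3 arrays per group. A gene was called, that is, said to have fallen or risen, at a Benjamini-Hochberg adjusted p under 0.05 over all 19938 genes. With 3 arrays on each side an exact permutation test has a smallest possible p of 0.1, and the calls therefore rest on limma's model of the spread. Both knockdowns were set against the same 3 control arrays, and the difference between them was tested by comparing the RPA1 shRNA arrays directly with the HSF1 shRNA arrays. In bulk RNA, fewer cycling cells and less RNA per cell cannot be told apart.

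The knockdown of RPA1 was visible in its own transcript. Rpa1 read 11.40, 11.42 and 11.41 in the control arrays, 11.35, 11.33 and 11.30 under HSF1 shRNA, and 9.42, 9.34 and 9.40 under RPA1 shRNA. It fell by 2.02 ± 0.04 on the log2 scale under RPA1 shRNA (adjusted p = 3.5e-08). The Hsf1 transcript was not analysed here. RPA1 shRNA array 3 had the lowest mean correlation with the other 2 arrays of its group, 0.9943. RPA1 shRNA arrays 1 and 2 stood at 0.9965 and 0.9959, also below the 0.998 to 0.9985 within the other groups. Of 10 fibroblast markers, 4 fell and 1 rose under HSF1 shRNA, and 6 fell under RPA1 shRNA; their summed log2 signal was 110.6 to 111 in the controls, 109.5 to 110.7 under HSF1 shRNA and 104.6 to 107.5 under RPA1 shRNA. Of 21 markers of other cell types, 7 rose and 0 fell under HSF1 shRNA, and 7 rose and 1 fell under RPA1 shRNA, with sums of 157.5 to 157.7, 161.5 to 162.8 and 161.7 to 163.7. For comparison, 6.21% of all genes fell and 9.89% rose under HSF1 shRNA, and 14.7% fell and 15.4% rose under RPA1 shRNA. The sums do not measure a share of cells. Of the 4 blood and macrophage markers, Ptprc and Adgre1 had control means near 6, low on this scale, and were not called. Csf1r, the receptor of a macrophage growth factor, rose by 0.27 under HSF1 shRNA (adjusted p = 0.032) and by 0.35 under RPA1 shRNA (adjusted p = 0.0046). Cd68, a lysosomal gene of macrophages that other cells also express, rose by 2.06 ± 0.17 under RPA1 shRNA (adjusted p = 2.8e-05) and was at 0.48 under HSF1 shRNA (adjusted p = 0.083). The part of these markers in the results on replication genes was not tested.

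Some replication genes fell under each knockdown, and no member changed by as much as 1.5-fold. HSF1 shRNA lowered 10 of the 39 and raised 0, where 6.21% of all genes fell, 9.89% rose and 16.1% were called in all. The 10 were Cdc6, Cdt1, Mcm7, Pola1, Pold1, Pole, Pcna, Rfc4, Lig1 and Tk1. The median difference of the 39 was -0.14, against 0.04 for all genes. Of the 39 differences 32 were negative, as were 7577 of all 19938. At an unadjusted limma p under 0.05, 20 members were lower and 1 higher. Under RPA1 shRNA 20 were lower and 3 higher at that threshold. All genes were not counted in this way, so these counts cannot be set against the shares of all genes. The share of members called as falls under HSF1 shRNA, 25.6%, was above the share of all genes that fell there. Leaving out any 1 control array, or HSF1 shRNA array 2 or 3, took the count of falls under HSF1 shRNA to 7. Leaving out RPA1 shRNA array 3, which changes the spread but not these means, took it to 18.

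RPA1 shRNA lowered 13 of the 39 and raised 3. Of all genes, 14.7% fell, 15.4% rose and 30.1% were called in all, and 33.3% of the members fell and 7.69% rose. Those that fell were Cdt1, Mcm4, Mcm5, Gins1, Gins2, Gins4, Pold1, Pole, Pole2, Prim2, Rfc1, Rfc2 and Rfc4, and those that rose were Orc1, Fen1 and Rrm2. The median difference was -0.12 against 0.02 for all genes. Of the 39 differences 29 were negative, as were 9015 of all 19938. Leaving out control array 2 took the count of falls to 8, and leaving out RPA1 shRNA array 3 took the count of rises to 5.

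Set directly against HSF1 shRNA, RPA1 shRNA left 6 members lower and 5 higher. The 6 were Gins1, Gins2, Gins4, Pole2, Rfc1 and Rfc2, and the 5 were Orc1, Prim1, Uhrf1, Rrm2 and Tk1. For all genes in this comparison 14.7% were lower, 9.71% were higher and 24.4% were called in all. The shares among members were 15.4% and 12.8%, close to that background. The list of higher members moved most with single arrays: it held 1 gene without HSF1 shRNA array 2 or 3 or RPA1 shRNA array 2, 2 genes without RPA1 shRNA array 1, and 11 without RPA1 shRNA array 3. The list of lower members held 3 genes without HSF1 shRNA array 1 or RPA1 shRNA array 1 or 2. With each array scaled to the same median the direct comparison gave 4 lower and 12 higher members, and 4 and 12 after quantile scaling.

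Both scalings also changed the balance of all genes. Under HSF1 shRNA, 1239 genes fell and 1971 rose as deposited, 1717 fell and 1593 rose after median scaling, and 1649 and 1789 after quantile scaling. In the direct comparison the split was 2928 lower and 1935 higher as deposited, 2426 and 2672 after median scaling, and 2669 and 2520 after quantile scaling. Under HSF1 shRNA 17 members fell and 0 rose with median scaling, and 16 fell and 1 rose with quantile scaling. All 10 members that fell in the values as deposited fell under both scalings.

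**Figure D1:**
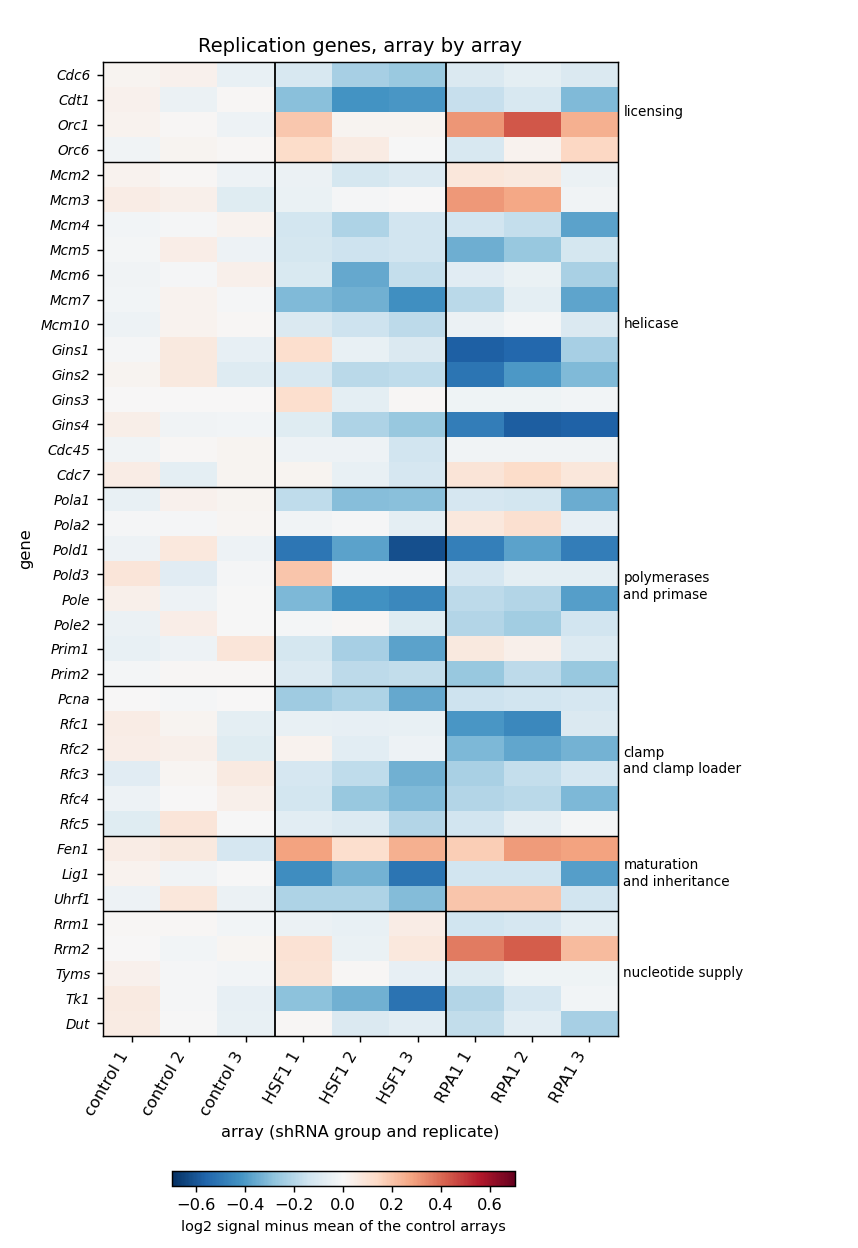
Each row is a replication gene and each column an array, and the colour is the log2 signal minus the mean of the 3 control arrays, blue below and red above. Most rows are blue in both knockdowns, Pold1 is dark in all 6 knockdown arrays, the GINS genes Gins1, Gins2 and Gins4 are darkest under RPA1 shRNA, and Orc1, Fen1 and Rrm2 are red there.

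Array by array, the median deviation of the 39 genes from their control means was -0.09, -0.15 and -0.14 in the HSF1 shRNA arrays and -0.13, -0.08 and -0.12 in the RPA1 shRNA arrays. In the HSF1 shRNA arrays 24, 27 and 29 of the 39 genes read below their lowest control array, and 30, 25 and 29 did under RPA1 shRNA. Of all genes, 20.9%, 28.4% and 28.9% did so in the HSF1 shRNA arrays and 35.5%, 33.4% and 31% in the RPA1 shRNA arrays. All 3 HSF1 shRNA arrays lay below all 3 controls for 22 members and above them for 1, where 13.9% and 23.9% of all genes did so. For RPA1 shRNA the counts were 24 below and 4 above, with 19.2% and 21.9% of all genes.

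The calls fell into 5 patterns. Cdt1, Pold1, Pole and Rfc4 fell under both knockdowns. Another 6 fell under HSF1 shRNA and were not called under RPA1 shRNA (Cdc6, Mcm7, Pola1, Pcna, Lig1 and Tk1), 9 fell under RPA1 shRNA and were not called under HSF1 shRNA, 3 rose under RPA1 shRNA and were not called under HSF1 shRNA, and 17 were called in neither. No member was called in opposite directions. Of all 19938 genes, 852 fell under both knockdowns, 333 fell under HSF1 shRNA only and 1999 under RPA1 shRNA only. Another 1873 rose under RPA1 shRNA only and 12856 were called in neither. Opposite calls were rare among all genes too: 54 fell under HSF1 shRNA and rose under RPA1 shRNA, and 70 did the reverse. Of the 6 genes called under HSF1 shRNA but not RPA1 shRNA, Tk1 differed between the knockdowns in the direct test on the probe set used. Of the 9 called as falls under RPA1 shRNA but not HSF1 shRNA, 6 did.

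**Figure D2:**
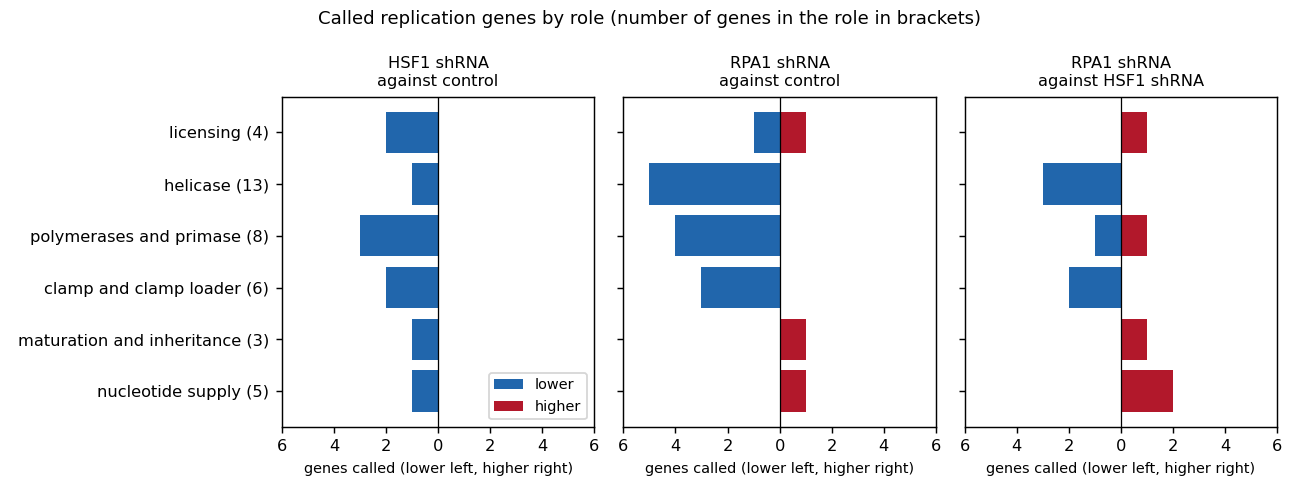
Bars count the genes called lower (blue, left) and higher (red, right) in each role, for HSF1 shRNA and RPA1 shRNA against the control and for RPA1 shRNA against HSF1 shRNA, with the number of genes in the role in brackets. Helicase genes account for 1 fall under HSF1 shRNA and 5 under RPA1 shRNA, with median differences of -0.14 and -0.12. Of all genes 6.21% and 14.7% fell. The rises under RPA1 shRNA are spread over licensing, maturation and nucleotide supply.

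Promoter sequence is shown for members that were called, since many replication genes are known E2F targets. RefSeq promoter windows on GRCm38.p6, from 250 bases before to 50 bases after a gene's start, were held for 32 of the 39 members, in 38 windows. Letters of the E2F site (TTTCCCGC, TTTCGCGC, TTTGCCGC or TTTGGCGC, on either strand) were in 15 of the 38 windows (39.5%), against 744 of 32851 windows of all genes (2.26%) and 21.7% of the 46 windows of other replication genes. They were in the windows of 6 of the 9 genes with a window that fell under HSF1 shRNA and of 9 of the 23 not called, and in 4 of 6 that fell, 1 of 3 that rose and 10 of 23 not called under RPA1 shRNA. The 7 members without a window (Gins1, Gins2, Gins4, Mcm4, Pole, Prim2 and Rfc2) were all among the 13 that fell under RPA1 shRNA, so most of that class was not read. The 30-base stretches around these letters follow for the 9 called genes that hold them, read 5′ to 3′ along the gene's strand, with the matching letters in capitals. Cdt1, Pold1 and Lig1 had the largest fall of their role, and the other 6 were added after their values were seen. Gins4 and Rfc2, with the largest falls among helicase and clamp genes, had no window, and that of Tk1 held none of these letters.
Cdt1, chr8:122568035-122568064, plus strand: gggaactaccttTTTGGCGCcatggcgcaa
Cdc6, chr11:98908002-98908031, plus strand: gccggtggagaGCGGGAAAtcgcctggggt
Orc1, chr4:108579416-108579445, plus strand: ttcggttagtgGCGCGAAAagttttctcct
Mcm5, chr8:75109347-75109376, plus strand: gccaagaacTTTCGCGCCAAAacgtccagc
Mcm7, chr5:138171849-138171878, minus strand: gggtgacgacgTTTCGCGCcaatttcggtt
Pola1, chrX:93632275-93632304, minus strand: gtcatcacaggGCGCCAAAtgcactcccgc
Pold1, chr7:44548766-44548795, minus strand: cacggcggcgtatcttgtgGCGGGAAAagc
Pole2, chr12:69228162-69228191, minus strand: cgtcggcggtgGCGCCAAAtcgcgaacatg
Lig1, chr7:13278841-13278870, plus strand: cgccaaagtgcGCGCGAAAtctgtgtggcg
In Mcm5 2 overlapping matches share 1 stretch, and the Mcm7 window held a second match farther from the start that is not shown.

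Letters of the heat shock element, the site HSF1 is known to bind, were searched for in the same windows. A pair of facing units (GAANNTTC or TTCNNGAA, each of which reads the same on both strands) was in 3 of 38 windows (7.89%), those of Mcm5, Pcna and Tyms, and in 15.1% of all windows. A run of 3 alternating units was in 0 of 38 and in 0.603% of all windows. CCAAT on either strand was in 20 of 38 (52.6%) and in 37.4% of all. A match is a match of letters in this window and no more, and some CCAAT letters may overlap other matches.

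Among the licensing genes 2 of 4 fell under HSF1 shRNA, and 1 fell and 1 rose under RPA1 shRNA. Cdt1, which brings the MCM ring to the origin, read 11.85, 11.78 and 11.83 in the controls, 11.53, 11.40 and 11.41 under HSF1 shRNA and 11.66, 11.71 and 11.51 under RPA1 shRNA. All knockdown arrays lay below all controls, and the HSF1 and RPA1 arrays overlapped at their edges. It fell by 0.38 ± 0.064 under HSF1 shRNA (adjusted p = 0.0043, 1.3-fold). Under RPA1 shRNA it fell by 0.19 ± 0.064 (adjusted p = 0.047), a call that held in 8 of 17 alternative settings. Its adjusted p was 0.098 without RPA1 shRNA array 3 and ran from 0.014 to 0.13 over all 17. The direct difference between the knockdowns was 0.18 (95% interval 0.04 to 0.33, adjusted p = 0.065).

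Cdc6, the ATPase that works with CDT1, fell by 0.20 ± 0.053 under HSF1 shRNA (adjusted p = 0.032) and stood at -0.09 under RPA1 shRNA (adjusted p = 0.25). Orc1, the largest subunit of the origin recognition complex, read 9.68, 9.66 and 9.62 in the controls, 9.84, 9.67 and 9.67 under HSF1 shRNA and 9.96, 10.09 and 9.90 under RPA1 shRNA, where every array was above every other array of the series. Orc1 rose by 0.33 ± 0.066 under RPA1 shRNA (adjusted p = 0.0041), was at 0.08 under HSF1 shRNA (adjusted p = 0.51), and was 0.26 higher under RPA1 shRNA than under HSF1 shRNA (adjusted p = 0.02). That direct call held in 12 of 17 alternative settings. Orc6, a smaller subunit of the same complex, was at 0.06 and 0.02, with overlapping arrays.

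Of the 13 helicase genes 1 fell under HSF1 shRNA and 5 fell under RPA1 shRNA, where 6.21% and 14.7% of all genes fell. Their median differences were close, at -0.14 and -0.12. For 9 and 8 of the 13 all arrays of the knockdown lay below all controls, as for 13.9% and 19.2% of all genes. Of the 6 genes of the MCM2-7 ring, Mcm7 fell under HSF1 shRNA, and Mcm4 and Mcm5 fell under RPA1 shRNA. Mcm7 read 12.66, 12.70 and 12.67 in the controls, 12.37, 12.34 and 12.25 under HSF1 shRNA and 12.49, 12.61 and 12.31 under RPA1 shRNA. The groups did not overlap with the controls, and the RPA1 shRNA arrays were the most scattered. It fell by 0.35 ± 0.073 under HSF1 shRNA (adjusted p = 0.01) and was at -0.20 ± 0.073 under RPA1 shRNA (adjusted p = 0.061). The direct difference of 0.15 (95% interval -0.01 to 0.31) was not called (adjusted p = 0.18).

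Mcm4 fell by 0.22 (adjusted p = 0.029) and Mcm5 by 0.24 (adjusted p = 0.013) under RPA1 shRNA, and both were lower in all 3 HSF1 shRNA arrays than in any control without being called there, at -0.16 and -0.14. The RPA1 shRNA call of Mcm4 held in 12 of 17 alternative settings. Mcm6 stood at -0.21 under HSF1 shRNA (adjusted p = 0.085) and -0.12 under RPA1 shRNA. Mcm2 was at -0.09 and 0.03. Mcm3 read 11.65, 11.62 and 11.32 under RPA1 shRNA against 11.40, 11.38 and 11.26 in the controls, so array 3 lay among the controls and the other 2 above them. Its difference of 0.18 was not called (adjusted p = 0.14).

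GINS, the complex of 4 proteins that joins CDC45 and the ring, held the largest fall of all members under RPA1 shRNA. Gins4 read 12.22, 12.15 and 12.16 in the controls, 12.09, 11.96 and 11.91 under HSF1 shRNA and 11.69, 11.60 and 11.61 under RPA1 shRNA, 3 separate bands with no overlap. It fell by 0.54 ± 0.057 under RPA1 shRNA (adjusted p = 0.00012, 1.45-fold). Under HSF1 shRNA it was at -0.19 (adjusted p = 0.052), called in 9 of the 17 alternative settings and not in the fit used here. The direct difference was -0.35 (adjusted p = 0.0022).

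Gins1 read 9.89, 9.97 and 9.84 in the controls, 10.02, 9.85 and 9.80 under HSF1 shRNA and 9.33, 9.35 and 9.67 under RPA1 shRNA. The HSF1 shRNA arrays lay on both sides of the controls, while all RPA1 shRNA arrays were below them, array 3 the least. Gins1 fell by 0.45 ± 0.095 under RPA1 shRNA (adjusted p = 0.0055) and the direct difference was -0.44 (adjusted p = 0.0089). Gins2 fell by 0.41 ± 0.064 (adjusted p = 0.0012), with a direct difference of -0.25 (adjusted p = 0.02). Gins3 was not called: it read 10.01 in every control array and 9.98, 9.98 and 9.99 under RPA1 shRNA, a difference of -0.02 (95% interval -0.14 to 0.09). HSF1 shRNA left it at 0.02.

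The remaining 3 helicase genes were not called. Cdc45, which completes the helicase, was at -0.07 under HSF1 shRNA and -0.02 under RPA1 shRNA. Mcm10, which acts at helicase activation, was at -0.15 (adjusted p = 0.063) and -0.05. Cdc7, the kinase that phosphorylates the MCM ring, was at -0.05 and 0.10.

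Polymerase and primase genes held the largest fall under HSF1 shRNA. Pold1, the catalytic subunit of polymerase delta, read 10.10, 10.21 and 10.10 in the controls, 9.63, 9.76 and 9.52 under HSF1 shRNA and 9.66, 9.76 and 9.65 under RPA1 shRNA. Every knockdown array lay below every control, and the knockdown groups overlapped each other. The gene fell by 0.50 ± 0.069 under HSF1 shRNA (adjusted p = 0.0016, 1.42-fold) and by 0.45 ± 0.069 under RPA1 shRNA (adjusted p = 0.001, 1.37-fold), both in all 17 alternative settings. The direct difference was 0.05, with a 95% interval of -0.1 to 0.21.

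Pole, the catalytic subunit of polymerase epsilon, fell by 0.39 ± 0.064 under HSF1 shRNA (adjusted p = 0.0037) and by 0.25 ± 0.064 under RPA1 shRNA (adjusted p = 0.014), with a direct difference of 0.14 (adjusted p = 0.16). Pola1, the catalytic subunit of polymerase alpha, fell by 0.26 under HSF1 shRNA (adjusted p = 0.031) and was at -0.20 under RPA1 shRNA (adjusted p = 0.052). So all 3 catalytic subunits fell under HSF1 shRNA, though the Pola1 call held in 12 of 17 alternative settings. Of the accessory subunits among the members, Pola2 was at -0.03, Pold3 at 0.06 and Pole2 at -0.03 under HSF1 shRNA, all uncalled. Accessory subunits outside the members are not listed here. Catalytic and accessory subunits were not tested against each other.

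Pole2, the second subunit of polymerase epsilon, fell by 0.20 under RPA1 shRNA (adjusted p = 0.018) and was lower there than under HSF1 shRNA by a direct difference of -0.16 (adjusted p = 0.047), a call that held in 5 of 17 alternative settings. Prim2, the large subunit of primase, fell by 0.24 under RPA1 shRNA (adjusted p = 0.0039) and was at -0.15 under HSF1 shRNA (adjusted p = 0.058). Prim1, the catalytic subunit, was at -0.25 under HSF1 shRNA (adjusted p = 0.054) and at 0.00 under RPA1 shRNA, and the direct difference of 0.25 was called (adjusted p = 0.039) and held in 9 of 17 alternative settings.

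**Figure D3:**
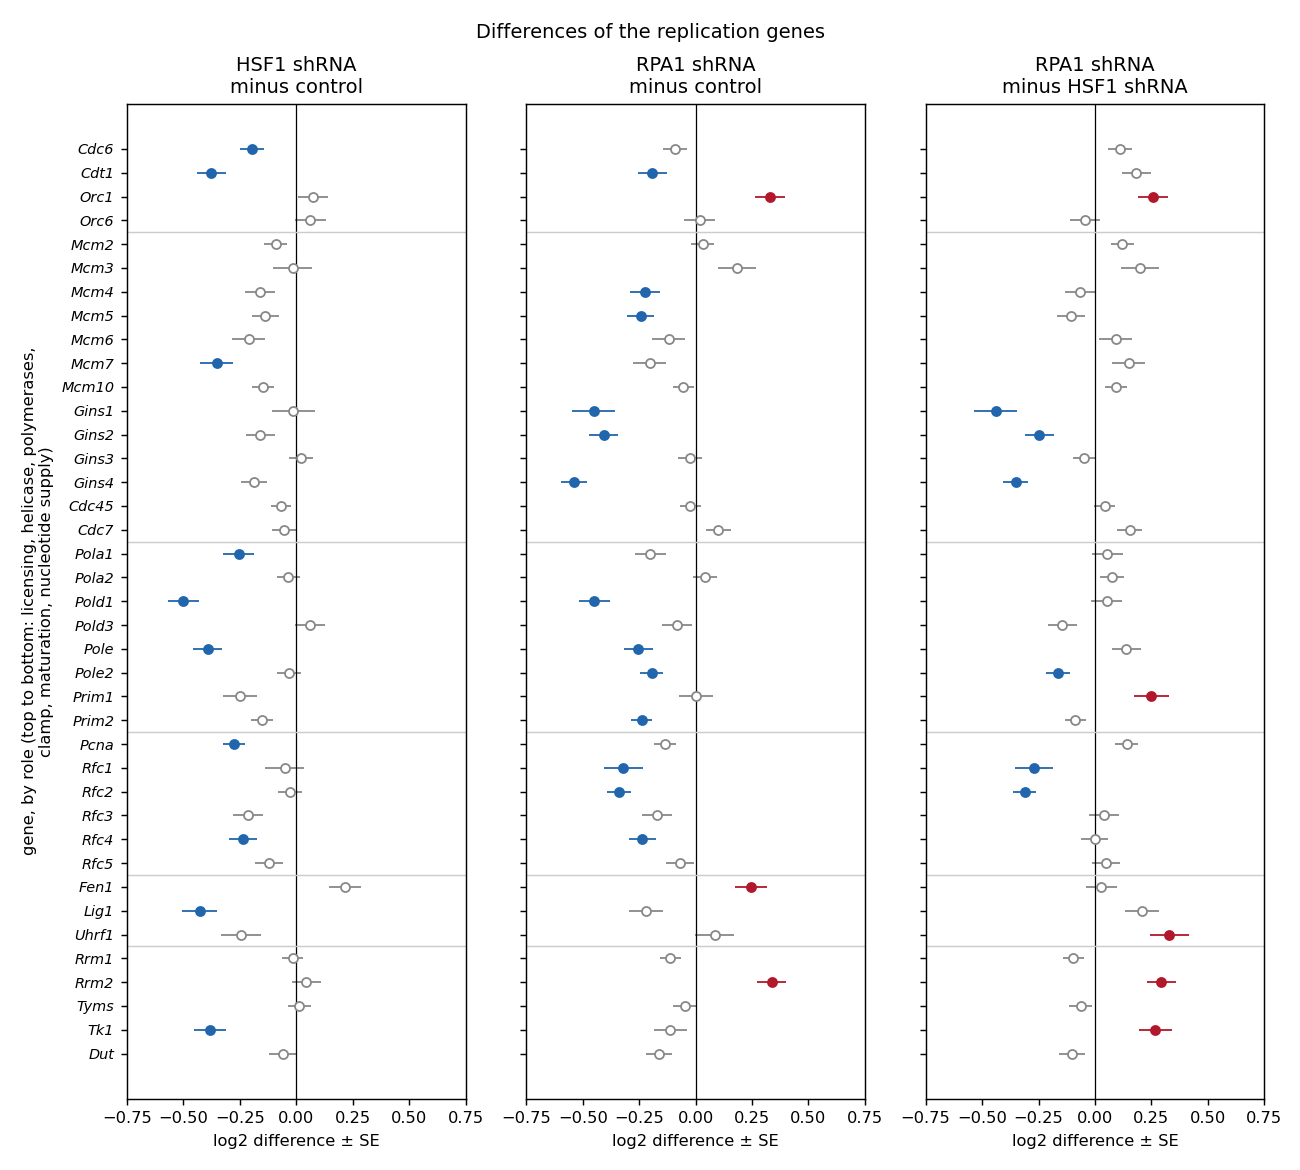
Points are log2 differences with standard errors for each replication gene, in the order of roles, for HSF1 shRNA minus control, RPA1 shRNA minus control and RPA1 shRNA minus HSF1 shRNA; filled blue points were called lower, filled red points higher and open points were not called. Pold1 has the lowest point at -0.50 under HSF1 shRNA and Gins4 at -0.54 under RPA1 shRNA.

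Clamp and clamp loader genes were all negative in both knockdowns, with 2 of 6 called under HSF1 shRNA and 3 under RPA1 shRNA. Of all 19938 genes, 7577 and 9015 were negative, and 6.21% and 14.7% fell. Pcna, the clamp that holds the polymerase on DNA, read 13.38, 13.37 and 13.38 in the controls, 13.13, 13.16 and 13.02 under HSF1 shRNA and 13.23, 13.24 and 13.26 under RPA1 shRNA, with no overlap between any groups. It fell by 0.28 ± 0.049 under HSF1 shRNA (adjusted p = 0.0054) and was at -0.13 ± 0.049 under RPA1 shRNA (adjusted p = 0.066). The direct difference of 0.14 had an adjusted p of 0.067. A second Pcna probe set gave -0.27 and -0.14. The number of the Pcna probe set used lies between those of Rnaseh2c and Pola2 on chromosome 19, while Pcna is on chromosome 2. That of the second probe set lies between those of Top1 and E2f1, both on chromosome 2. Which of the probe sets of this gene also reads near-identical copies elsewhere in the genome was not settled here.

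Of the loader genes, Rfc1 and Rfc2 differed between the knockdowns in the direct test. Rfc2 read 10.29, 10.28 and 10.16 in the controls, 10.27, 10.17 and 10.21 under HSF1 shRNA and 9.93, 9.88 and 9.91 under RPA1 shRNA. HSF1 shRNA arrays lay within the controls' range, and RPA1 shRNA arrays lay below all 6 others. It fell by 0.34 ± 0.053 under RPA1 shRNA (adjusted p = 0.001), was at -0.03 under HSF1 shRNA (adjusted p = 0.79), and the direct difference was -0.31 (adjusted p = 0.0027). Rfc1, the large subunit, fell by 0.32 ± 0.086 under RPA1 shRNA (adjusted p = 0.019), a call that held in 12 of 17 alternative settings. Its arrays there read 10.41, 10.37 and 10.72 against 10.87, 10.84 and 10.75 in the controls, so array 3 was close to the controls. Its direct difference from HSF1 shRNA, -0.27, was called (adjusted p = 0.047) and held in 5 of 17 alternative settings.

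Rfc4 fell under both knockdowns, by 0.23 under HSF1 shRNA (adjusted p = 0.028) and by 0.24 under RPA1 shRNA (adjusted p = 0.016), with a direct difference of 0.00 (95% interval -0.14 to 0.14). Rfc3 was at -0.21 (adjusted p = 0.059) and -0.17 (adjusted p = 0.082), below all controls in every knockdown array but not called. Rfc5 was at -0.12 and -0.07, with arrays that overlapped the controls.

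Among the maturation genes Lig1 fell under HSF1 shRNA and Fen1 rose under RPA1 shRNA. Lig1, the ligase that seals the lagging strand, read 10.81, 10.76 and 10.78 in the controls, 10.35, 10.45 and 10.27 under HSF1 shRNA and 10.65, 10.65 and 10.40 under RPA1 shRNA, with both knockdowns below the controls. It fell by 0.43 ± 0.076 under HSF1 shRNA (adjusted p = 0.0054, 1.35-fold) and was at -0.22 under RPA1 shRNA (adjusted p = 0.055). The direct difference was 0.21 (adjusted p = 0.078), and 0.29 (adjusted p = 0.0045) without RPA1 shRNA array 3, in a range of adjusted p from 0.0045 to 0.23 over 17 settings.

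Fen1, the nuclease that trims the flap before ligation, read 9.68, 9.70 and 9.51 in the controls, 9.91, 9.75 and 9.88 under HSF1 shRNA and 9.80, 9.93 and 9.91 under RPA1 shRNA. All knockdown arrays were above all controls. It rose by 0.25 ± 0.07 under RPA1 shRNA (adjusted p = 0.024). The rise was not called without control array 3 (adjusted p = 0.091) or RPA1 shRNA array 2 (adjusted p = 0.076), and its adjusted p ran from 0.0069 to 0.091 over 17 settings. Under HSF1 shRNA its difference was 0.22 (adjusted p = 0.064), and the direct difference of 0.03 had a 95% interval of -0.13 to 0.18.

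Uhrf1, which reads hemimethylated DNA behind the fork, showed no call against the control in either knockdown but a direct difference between them. It read 10.75, 10.86 and 10.74 in the controls, 10.57, 10.57 and 10.48 under HSF1 shRNA and 10.98, 10.98 and 10.65 under RPA1 shRNA. The HSF1 shRNA arrays were below all controls, while under RPA1 shRNA 2 arrays were above the controls and array 3 below them. The differences were -0.24 (adjusted p = 0.092) and 0.08 (adjusted p = 0.53), and the direct difference was 0.33 ± 0.087 (adjusted p = 0.022). The direct call held in 11 of 17 alternative settings. Without RPA1 shRNA array 3, HSF1 shRNA stood at -0.24 (adjusted p = 0.0075) and RPA1 shRNA at 0.19 (adjusted p = 0.023), both called, in opposite directions. Over 17 settings the adjusted p ran from 0.0075 to 0.26 for HSF1 shRNA and from 0.021 to 0.87 for RPA1 shRNA.

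Of the 5 nucleotide supply genes, 1 fell under HSF1 shRNA and 1 rose under RPA1 shRNA. Tk1, the thymidine kinase of S phase, read 11.27, 11.20 and 11.15 in the controls, 10.92, 10.87 and 10.69 under HSF1 shRNA and 11.00, 11.09 and 11.19 under RPA1 shRNA. HSF1 shRNA arrays lay below all others, and RPA1 shRNA overlapped the controls. It fell by 0.38 ± 0.073 under HSF1 shRNA (adjusted p = 0.0075), was at -0.11 under RPA1 shRNA (adjusted p = 0.29), and the direct difference was 0.27 (adjusted p = 0.025), called in 13 of 17 alternative settings. A second Tk1 probe set gave -0.39 under HSF1 shRNA and -0.20 under RPA1 shRNA. The direct difference was not tested on that probe set alone. The number of the Tk1 probe set used lies between those of Gins2 on chromosome 8 and Thy1 on chromosome 9, while Tk1 is on chromosome 11. That of the second probe set lies between those of Pecam1 on chromosome 11 and Rrm2 on chromosome 12. The array values and the direct call given here may therefore come from a near-identical copy elsewhere in the genome, which was not settled here.

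Rrm2, the small subunit of ribonucleotide reductase, which makes deoxynucleotides, read 12.04, 12.02 and 12.05 in the controls, 12.14, 11.99 and 12.11 under HSF1 shRNA and 12.40, 12.46 and 12.26 under RPA1 shRNA. The RPA1 shRNA arrays lay above all others. Rrm2 rose by 0.34 ± 0.064 under RPA1 shRNA (adjusted p = 0.003), was at 0.04 under HSF1 shRNA (adjusted p = 0.71), and the direct difference was 0.29 (adjusted p = 0.0087). Its partner Rrm1, the large subunit, was at -0.02 and -0.11 (adjusted p = 0.1 under RPA1 shRNA). Tyms, which makes thymidylate, was at 0.01 and -0.05, and Dut, which removes dUTP, at -0.06 and -0.16 (adjusted p = 0.064 under RPA1 shRNA).

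**Figure D4:**
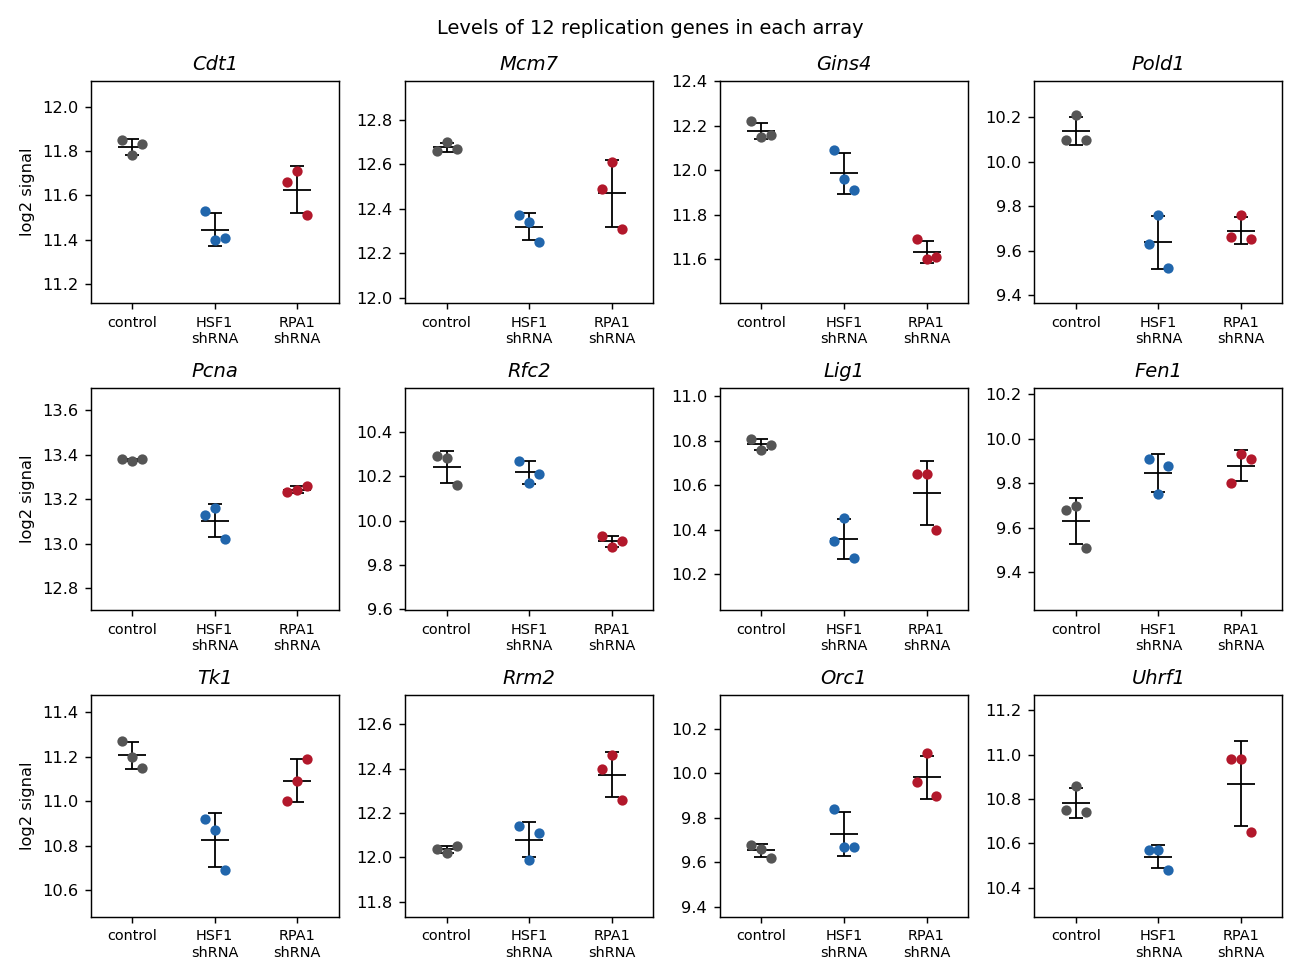
Points are the log2 signals of the 3 arrays in each group for 12 replication genes, with the mean and the standard deviation as horizontal and vertical bars; each panel spans 1 log2 unit. Gins4 and Rfc2 are lowest under RPA1 shRNA, Tk1 and Uhrf1 under HSF1 shRNA, Pold1 in both, and Rrm2 and Orc1 are highest under RPA1 shRNA.

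A list of 45 other measured replication genes was drawn up by function. Under HSF1 shRNA 6 of them fell and 1 rose, with a median of -0.06. Of all genes 6.21% fell and 9.89% rose there, with a median of 0.04. Under RPA1 shRNA 10 of the 45 fell and 6 rose, with a median of -0.07. There 14.7% of all genes fell and 15.4% rose, with a median of 0.02. In the direct comparison 4 of the 45 were lower and 5 higher, with a median of -0.04. For all genes the shares were 14.7% lower and 9.71% higher, with a median of -0.02. The counts under HSF1 shRNA ranged from 2 without control array 3 or HSF1 shRNA array 3 to 15 without RPA1 shRNA array 3, and those of the direct comparison from 4 without RPA1 shRNA array 1 or 2 to 22 without RPA1 shRNA array 3. Pold2, the small subunit that accompanies Pold1, had the largest fall under RPA1 shRNA, 0.58 ± 0.068 (adjusted p = 0.00023). Its direct difference from HSF1 shRNA was -0.48 (adjusted p = 0.0012), and under HSF1 shRNA it stood at -0.10 (adjusted p = 0.4).

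Rnaseh2a, the catalytic subunit of the ribonuclease that removes RNA from DNA, fell under both knockdowns, by 0.35 (adjusted p = 0.008) and 0.47 (adjusted p = 0.00075). So did Timeless of the fork protection complex, by 0.29 (adjusted p = 0.022) and 0.33 (adjusted p = 0.0067), and Rif1, a regulator of replication timing, by 0.27 (adjusted p = 0.034) and 0.45 (adjusted p = 0.0014). Atad5, which unloads PCNA, fell by 0.27 under HSF1 shRNA (adjusted p = 0.021) and was at -0.10 under RPA1 shRNA (adjusted p = 0.31), and its direct difference was not called (adjusted p = 0.091). Dna2, the nuclease that cuts long flaps in the same step as FEN1, rose under both, by 0.39 (adjusted p = 0.0072) and 0.36 (adjusted p = 0.0053).

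Under RPA1 shRNA the polymerase epsilon subunit Pole4 rose by 0.47 (adjusted p = 0.00023) and was 0.30 above HSF1 shRNA (adjusted p = 0.0042). The folate enzyme gene Shmt1 rose by 0.35 (adjusted p = 0.038), with arrays of 10.61, 10.66 and 10.19 that overlapped the controls, and was 0.34 above HSF1 shRNA (adjusted p = 0.046). Gmnn, which encodes the CDT1 inhibitor geminin, was lower under RPA1 shRNA than under HSF1 shRNA by a direct difference of -0.39 (adjusted p = 0.0027), as was Dck, a deoxynucleoside kinase, at -0.29 (adjusted p = 0.023). Ticrr, which acts in helicase activation, was 0.22 higher (adjusted p = 0.034).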

How the data were processed

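The deposited table held 1 log2 signal per probe set and array for 9 arrays (35557 probe sets), which was not normalized again. Per the submitters' processing notes the authors made these log2 values with RMA in Partek 6.5; the log base was inferred from their range, and the genome build and further settings are not given in the sources used here. Of the probe sets, 21789 had 1 gene symbol in the platform annotation, 1621 had several and 12147 were not listed; those with 1 symbol gave 19938 genes, 999 of them with more than 1 probe set. Array medians lay between 7.721 and 7.808.

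R 4.3.3 and limma 3.58.1 fitted 1 mean per group to all 9 arrays (6 residual and 3.508 prior degrees of freedom), two-sided, with Benjamini-Hochberg adjustment over all genes; the procedure was tested on simulated data. The number of arrays limits the precision. Alternatives were each array left out, a replicate block, the 6 arrays compared, median and quantile scaling, genes above the median gene, array weights, trended robust moderation, and the mean of a gene's probe sets. The arrays give no detection measure. All members may be named; array values are given for the largest change in each role under each knockdown, every rise, and the 5 largest differences between knockdowns. Mcm3, Gins3, Rfc1, Shmt1, E2f8 and Rb1 were given array values after these were seen. Of the 45 other replication genes, the 3 largest called falls and rises per comparison were named. The members and lists were chosen with earlier results of these data known. Promoter sequences are RefSeq's, from a mouse reference genome and not the ICR strain.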

Additional observations from a re-analysis of the deposited data

How the results depend on the processing

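No called difference of the 13 members that the naming rule selected for array values changed sign in the alternatives run. Uncalled values near 0 did: Gins1 under HSF1 shRNA (-0.01) stood at 0.01 to 0.03 without control array 2 or HSF1 shRNA array 2 or 3. Direct differences of Pold1 (0.05) and Fen1 (0.03) stood at -0.01 without HSF1 shRNA array 3 and -0.02 without HSF1 shRNA array 2. The balance of lower and higher genes turned over with median scaling under HSF1 shRNA and in the direct comparison, to 1717 against 1593 and 2426 against 2672, and that of members in the direct comparison went from 6 and 5 to 4 and 12. Members lower under HSF1 shRNA numbered 10, and 17 with only the 6 arrays compared, 17 with median scaling, 16 with quantile scaling, 19 with array weights and 7 to 18 with 1 array left out; all 10 were called in each alternative that kept every array, or every array of the groups compared. Of these 10, Cdc6, Pola1 and Rfc4 lost the call without any one of the control arrays or without HSF1 shRNA array 2 or 3. The member higher there was Fen1, 1 gene with quantile scaling, 1 among genes above the median gene and 1 with array weights. The median difference was -0.17 with median scaling and -0.17 with quantile scaling. For RPA1 shRNA, array weights gave 21 lower and 5 higher, and leaving out 1 array gave 8 to 13 lower and 2 to 5 higher. In the direct comparison the lower members ranged from 3 to 7 with 1 array left out and the higher from 1 to 11; the higher were 1 with the 6 arrays, 12 with median scaling, 12 with quantile scaling, 9 among genes above the median gene and 15 with array weights. Its median was 0.09 with median and 0.08 with quantile scaling, and 0.01 to 0.08 with 1 array left out. Other replication genes called under HSF1 shRNA numbered 11 with median scaling, 11 with quantile scaling, 11 above the median gene, 17 with array weights and 2 to 15 with 1 array left out, and in the direct comparison 4 with the 6 arrays, 24 with array weights and 4 to 22 with 1 array left out. The cause of these changes was not tested. With the replicate block, 11 members fell under HSF1 shRNA, 12 fell and 3 rose under RPA1 shRNA, and 4 were lower and 4 higher in the direct comparison; same-numbered arrays correlated at -0.16 to 0.09 in their deviations, so the numbers were not taken to pair the samples.

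The array reports no detection call, but all 39 members lay above the median gene of the table. The smallest differences from the control that were called were -0.20 for Cdc6 under HSF1 shRNA and -0.19 for Cdt1 under RPA1 shRNA, and members not called are not shown to be unchanged. Levels of different genes cannot be compared on this scale.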

Other observations

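A list of 12 measured genes of E2F control and proliferation stood beside the replication genes. Under HSF1 shRNA 2 fell and 3 rose, where 6.21% of all genes fell and 9.89% rose. Under RPA1 shRNA 2 fell and 8 rose, where 14.7% of all genes fell and 15.4% rose. Ccne1, the gene of cyclin E1, which drives cells into S phase, read 10.17, 10.26 and 10.22 in the controls, 10.57, 10.58 and 10.61 under HSF1 shRNA and 11.45, 11.59 and 11.46 under RPA1 shRNA. It rose by 0.37 ± 0.052 (limma adjusted p = 0.0019) and by 1.28 ± 0.052 (adjusted p = 1.5e-06), and the knockdowns differed directly by 0.91 (adjusted p = 3.5e-05). Ccne2 rose by 0.32 (adjusted p = 0.012) and 0.34 (adjusted p = 0.004).

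E2f1, the gene of a main activator of replication genes, read 10.77, 10.82 and 10.78 in the controls and 11.69, 11.86 and 11.01 under RPA1 shRNA, where array 3 was much closer to the controls. It rose by 0.73 (adjusted p = 0.011) there and was at -0.10 under HSF1 shRNA (adjusted p = 0.75). E2f2, E2f3 and E2f8 also rose under RPA1 shRNA, by 0.38, 0.32 and 0.65 (adjusted p = 0.016, 0.004 and 0.016), and Rb1, which encodes the E2F-binding retinoblastoma protein, rose by 0.75 (adjusted p = 0.0015). E2f7, the gene of an E2F repressor, rose under both knockdowns, by 0.18 (adjusted p = 0.031) and 0.17 (adjusted p = 0.026). These rises stood beside the falls of 13 replication genes and the rises of 3, Orc1, Fen1 and Rrm2, in the same arrays. Array 3 was also the RPA1 shRNA array closest to the controls for E2f2, E2f3, E2f8 and Rb1. For E2f8 it read 10.74, against 11.46 and 11.53 in arrays 1 and 2 and 10.58 to 10.60 in the controls. For Rb1 it read 10.94, against 11.46 and 11.50 in arrays 1 and 2 and 10.52 to 10.59 in the controls.

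Mki67, the proliferation marker, fell by 0.29 under HSF1 shRNA (adjusted p = 0.018) and by 0.28 under RPA1 shRNA (adjusted p = 0.012). Cdkn1b, the gene of the CDK inhibitor p27, fell by 0.76 (adjusted p = 0.00024) and 0.62 (adjusted p = 0.00019). Ccna2, the gene of cyclin A2, was at 0.01 and -0.02, with overlapping arrays.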
